A study of Mus musculus with 63 samples.

Results

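CaMKII-positive cells sorted from the motor cortex were compared between burn-injured and sham-injured mice by RNA-seq. The members were the libraries whose labels give the cell type as excitatory neurons, 4 from burn mice (mice 2, 20, 22 and 24) and 6 from sham mice (mice 8, 15, 16, 17, 18 and 19), which are 10 of the 63 libraries of the series. The library of burn mouse 3 was left out because that mouse had skin ulceration. All mice were female C57BL/6J, 12 weeks old, and received injections of adeno-associated viruses (AAVs) into the motor cortex that carry eGFP under a CaMKII promoter and mRuby2 under the mDlx enhancer. Burn mice then had a full thickness burn of the right flank over about 7 to 8% of the body surface. Sham mice were shaved and had the same surgery without the burn. Some burn mice of the study also needed the analgesic buprenorphine after surgery, and its part cannot be told apart from that of the burn. Tissue was taken 5 weeks later, dissociated and depleted of myelin, and cells with eGFP and without mRuby2 were sorted, so that the population is defined by the activity of a viral promoter and by no neuronal surface protein. Mice 2 and 8 were sequenced in batch 1 and the other 8 mice in batch 3. Burn libraries held 13346143 to 134703744 counts and sham libraries 13585743 to 26412353. Levels are in CPM, the counts of a gene scaled to a common library total, and a gene without counts could still have stood at 0.0223 to 0.225 CPM (3 counts, counting error only). No 2 of the libraries differed by as little as sampling noise.

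Excitatory neurons of the cortex use glutamate as their transmitter and are commonly labelled through the promoter of Camk2a, a calcium-dependent kinase that is abundant in them. Fast inhibition reaches these neurons through GABA-A receptors, chloride channels built of subunits drawn from several families. Astrocytes clear glutamate through Slc1a2, and the endothelium of brain vessels carries Flt1, a receptor for vascular endothelial growth factor.

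The RNA of these libraries did not follow the cell type label. In CPM per kilobase of exon, Slc1a2 averaged 3601 ± 760.0 (SD, n = 10), Flt1 743 ± 260.3, Camk2a 68.2 ± 57.7 and Slc17a7, the vesicular glutamate transporter of cortical excitatory neurons, 9.41 ± 8.37. On the same per-length scale, the mean of 12 astrocyte markers was 1092 ± 225, that of 12 endothelial markers 699 ± 267, that of 12 microglia markers 202 ± 114 and that of 11 excitatory neuron markers 28.1 ± 8.62. In each of the 10 libraries the astrocyte and endothelial means lay above the excitatory neuron mean, since the lowest values were 691 and 483 and the highest excitatory value was 47.0. The libraries are therefore called CaMKII-positive, after the sort, and not excitatory neurons.

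Camk2a varied widely among the libraries of each group. Its CPM were 17.8, 42.2, 128 and 348 in burn mice 2, 20, 22 and 24, and 273, 106, 72.4, 136, 43.4 and 65.2 in sham mice 8, 15, 16, 17, 18 and 19. Slc17a7 gave 2.13, 5.39, 5.47 and 32.3 CPM in the burn libraries and 25.1, 14.4, 0.608, 24.8, 4.42 and 9.39 CPM in the sham libraries, in the same order of mice. Burn mouse 24 was highest in both genes and the groups overlapped in both (log2FC 0.37, SE 0.72 for Camk2a, log2FC −0.18, SE 0.91 for Slc17a7, burn over sham). Without burn mouse 24 the log2FC was −0.74 for Camk2a and −1.55 for Slc17a7, and in batch 3 alone 1.05 and 0.44, so that neither gene had a stable direction. Slc1a2 was far steadier, at 12957, 11133, 10929.5 and 14683 CPM in burn and 9362, 11971, 11809, 6963, 13148 and 9338 CPM in sham libraries, and Flt1 stood at 1669, 2577, 2098 and 2268 CPM in burn and 2117, 1885, 1886, 4607, 1689 and 3275 CPM in sham libraries. Sham mouse 17 held the lowest Slc1a2 and the highest Flt1, and neither gene separated the groups (log2FC 0.27, SE 0.33 and log2FC −0.24, SE 0.32).

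**Figure D1:**
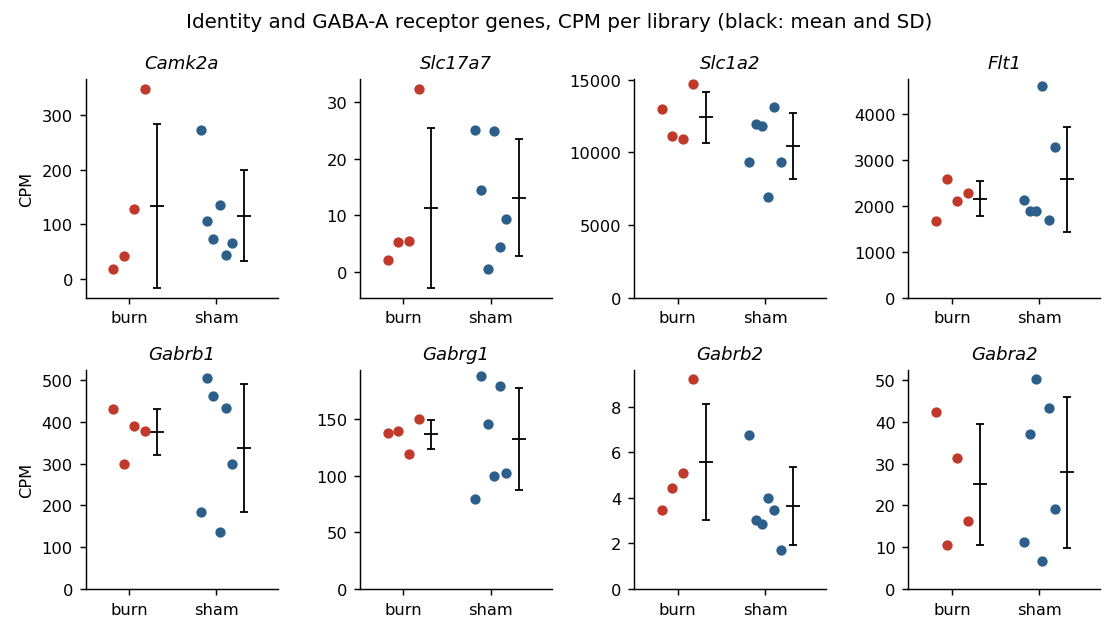
CPM (vertical axis, linear) of 4 genes that mark cell types and 4 GABA-A receptor subunits in each CaMKII-positive library, burn (red, n = 4) and sham (blue, n = 6), with the mean and SD in black. The groups overlap in each gene shown.

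Astrocyte RNA was set against the ACSA2-positive astrocyte library of the same mouse, which was sorted from cortex caudal to the motor cortex. The summed CPM of the 12 astrocyte markers in the CaMKII-positive library were 53.9 ± 7.78% (SD, n = 4) of those in the astrocyte sort in burn mice and 46.0 ± 12.3% (SD, n = 6) in sham mice, with a range of 32.6 to 63.8% over all 10 mice. The difference between groups was not past the threshold (exact permutation test within batches, two-sided, p = 0.268). The 12 microglia markers stood at 5.08 ± 2.55% of the CD11b-positive library of the same mouse in burn and at 3.65 ± 2.06% in sham mice (exact permutation p = 0.143). Myelinating oligodendrocyte and endothelial RNA had no sort of their own to be compared with.

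Against the astrocyte sort of the same 10 mice, the CaMKII-positive libraries held more of some genes of the neuronal lists and less of others, among them Rorb and Map2. Camk2a was higher in 9 of 10 mice (mean log2 difference 1.97 ± 1.20, SD; exact sign-flip permutation p = 0.00391, adjusted over 22 comparisons 0.00573) and Slc17a7 in 10 of 10 (2.09 ± 1.61; exact permutation p = 0.00195, the smallest the design allows, adjusted 0.00358). The summed excitatory neuron list was lower than in the astrocyte sort, at 528 ± 128 against 732 ± 85.9 CPM (SD, n = 10 each). Most of that sum came from Rorb, a nuclear receptor used as a marker of layer 4 neurons, at 319.6 CPM in the CaMKII-positive and 624 CPM in the astrocyte libraries. Without Rorb, a step chosen after its values were seen, the sum was 208 ± 138 against 108 ± 37.1 CPM, higher in 9 of 10 mice. The pan-neuronal list was lower than in the astrocyte sort in 10 of 10 mice, at 460.0 ± 67.5 against 587 ± 47.3 CPM (mean log2 difference −0.36, exact permutation p = 0.00195, adjusted 0.00358). Map2, a microtubule-associated protein that made up most of that sum, was lower in 10 of 10 mice (347 against 536 CPM). Without Map2, likewise left out after its values were seen, the list was higher in 9 of 10 mice. Endothelial, microglia and mature oligodendrocyte lists were higher in the CaMKII-positive library in 10 of 10 mice (mean log2 differences 2.89, 3.47 and 1.95, exact permutation p = 0.00195 each, adjusted 0.00358). The oligodendrocyte precursor list went the other way, at 2696 against 3847 CPM in the astrocyte sort, and was higher in 1 of 10 mice (mean log2 difference −0.57, exact permutation p = 0.00391, adjusted 0.00573). The brain region differs between these sorts and its part was not tested.

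Burn and sham libraries overlapped in the summed CPM of all 13 marker lists, and no list differed between the groups past the threshold. The exact permutation test of treatment within batches could not go below p = 0.00893, and the lowest adjusted p over the 13 lists was 0.663. Mural cell markers, which cover pericytes and the smooth muscle of vessels, summed to 816, 1228, 1384 and 1083 CPM in burn mice 2, 20, 22 and 24 and to 1639.5, 1778, 1159, 1273, 1557 and 1798 CPM in sham mice 8 and 15 to 19 (log2 difference −0.43, exact permutation p = 0.0982, adjusted 0.663). Microglia markers summed to 851, 2785, 1436 and 1399 CPM in burn and 572, 2019, 688, 551, 1038 and 1672 CPM in sham libraries (log2 difference 0.71, exact permutation p = 0.143). Burn mouse 20 held the most microglia RNA, and the other 3 burn libraries lay within the sham range. Astrocyte markers ran from 22448 to 28506 CPM in burn and from 15189 to 27754 CPM in sham libraries, and endothelial markers from 5535 to 9898 and from 5798 to 16227 CPM. The oligodendrocyte list stood apart in sham mouse 8, at 4329 CPM, where the other sham libraries ran from 385 to 1660.4 CPM. In bulk samples, fewer cells of a type and less RNA per cell cannot be told apart.

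**Figure D2:**
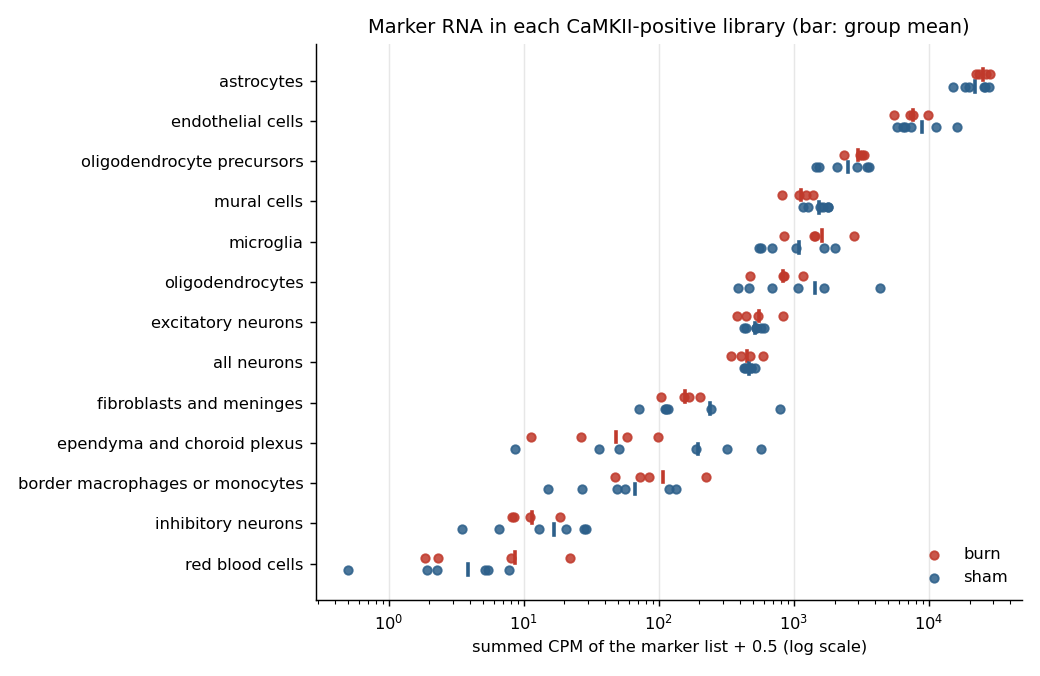
Summed CPM of 13 marker lists (horizontal axis, log scale, 0.5 added) in each CaMKII-positive library, burn (red, n = 4) and sham (blue, n = 6), with a bar at the group mean. Astrocyte and endothelial lists are highest in both groups, and burn and sham points overlap in each list.

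No gene was called different between burn and sham by edgeR with the thresholds of the study, an adjusted p up to 0.05 and a log2 fold change (log2FC) of 1 or more in size. This was 0 of 28107 genes tested, or 0%. At an unadjusted p under 0.05, 840 genes were higher (2.99%) and 256 lower in burn (0.911%). These counts moved with single libraries: leaving out each in turn gave 397 to 575 higher genes, and from 128 lower genes without burn mouse 24 to 532 without burn mouse 22. DESeq2 called 3 of 31800 genes with an adjusted p (0.00943%), among them the antibody variable segments Ighv2-3 and Igkv5-43, both lower in burn. DESeq2 gave the opposite split at an unadjusted p under 0.05, with 330 genes higher and 504 lower, and limma-voom with sample quality weights called 0 genes (smallest adjusted p = 0.262). Of the genes with a mean of at least 5 CPM, 134 were higher (1.03% of 13016) and 160 lower (1.23%) at an unadjusted p under 0.05. The excess of higher genes lay among those under 1 CPM, with 691 higher and 58 lower. Of those 691 genes, 598 had 0 counts in all 6 sham libraries and 509 of these had counts in burn mouse 2, the most deeply sequenced library. In CPM, mouse 2 was the highest library for 13 of the 691. Over all genes tested, 397 were higher and 187 lower at an unadjusted p under 0.05 without mouse 2, and 693 and 256 with its counts thinned. Without each other mouse in turn, 408 to 575 were higher. The part of its depth in the excess was not tested further.

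The precision of this comparison depended on the level of the gene. The 95% interval of the log2FC lay within −1 to 1 for 4405 of 4717 genes at 50 CPM or more, for 4709 of 8299 genes from 5 to 50 CPM, and for 0 of 4568 genes from 1 to 5 CPM. The median SE was 0.19, 0.32 and 1.15 in these classes. For 9121 genes in all, a change of 2-fold or more in either direction lay outside the interval. Camk2a and Slc17a7 were not among the well-measured genes. The interval of Camk2a ran from −1.18 to 1.93 and that of Slc17a7 from −2.15 to 1.79, where Slc1a2 had −0.45 to 0.99. Of the 11 excitatory neuron markers, 2 had an interval within −1 to 1, and of the 11 pan-neuronal markers 3. This compares with 11 of 12 astrocyte and 10 of 12 endothelial markers.

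**Figure D3:**
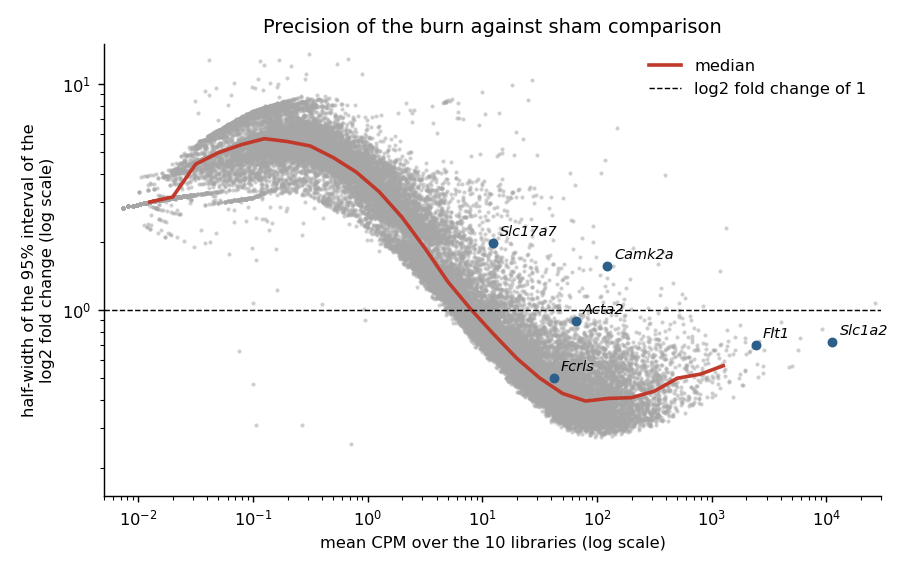
Half-width of the 95% interval of the log2FC (vertical axis, log scale) against mean CPM over the 10 libraries (horizontal axis, log scale), 1 grey point per gene tested, with the running median in red and a dashed line at a log2FC of 1. Genes below a few CPM lie mostly above the line, and Camk2a and Slc17a7 lie well above the median at their level.

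GABA-A receptor subunits were measured at very different levels, and those described here overlapped between the groups. Gabrb1, a beta subunit, had 431, 299, 391 and 378 CPM in burn and 137 to 506 CPM (median 366) in sham libraries (log2FC 0.23, SE 0.33). Gabrg1, the gamma subunit that astrocytes carry, had 138, 139.5, 119.6 and 150.4 CPM in burn and 79.7 to 188 CPM (median 124) in sham libraries (log2FC 0.12, SE 0.22). Burn values lay within the sham range in both genes. Gabrb2, another beta subunit, had 3.47, 4.41, 5.10 and 9.24 CPM in burn and 1.69 to 6.78 CPM (median 3.24) in sham libraries (log2FC 0.68, SE 0.56). Gabra2, an alpha subunit, had 42.3, 10.4, 31.3 and 16.3 CPM in burn and 6.61 to 50.2 CPM (median 28.1) in sham libraries (log2FC −0.19, SE 0.58). Gabra4 and Gabrg3 had log2FC of −0.45 and −0.22 (SE 0.29 and 0.53), and Gabra3 of 0.21 (SE 0.63). Gabra5, Gabrd, Gabre, Gabrr1 and Gabrr2 had counts in part of the libraries, with SE of 1.49 to 2.27. The 13 partners of the inhibitory synapse, among them the GABA-B subunit Gabbr2 (log2FC 0.33, SE 0.29), had a median log2FC of 0.12, where that of all genes tested was 0.018, and 0 members at an unadjusted p under 0.05. The 16 ionotropic glutamate receptor subunits had a median of −0.084 and none at that threshold either.

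**Figure D4:**
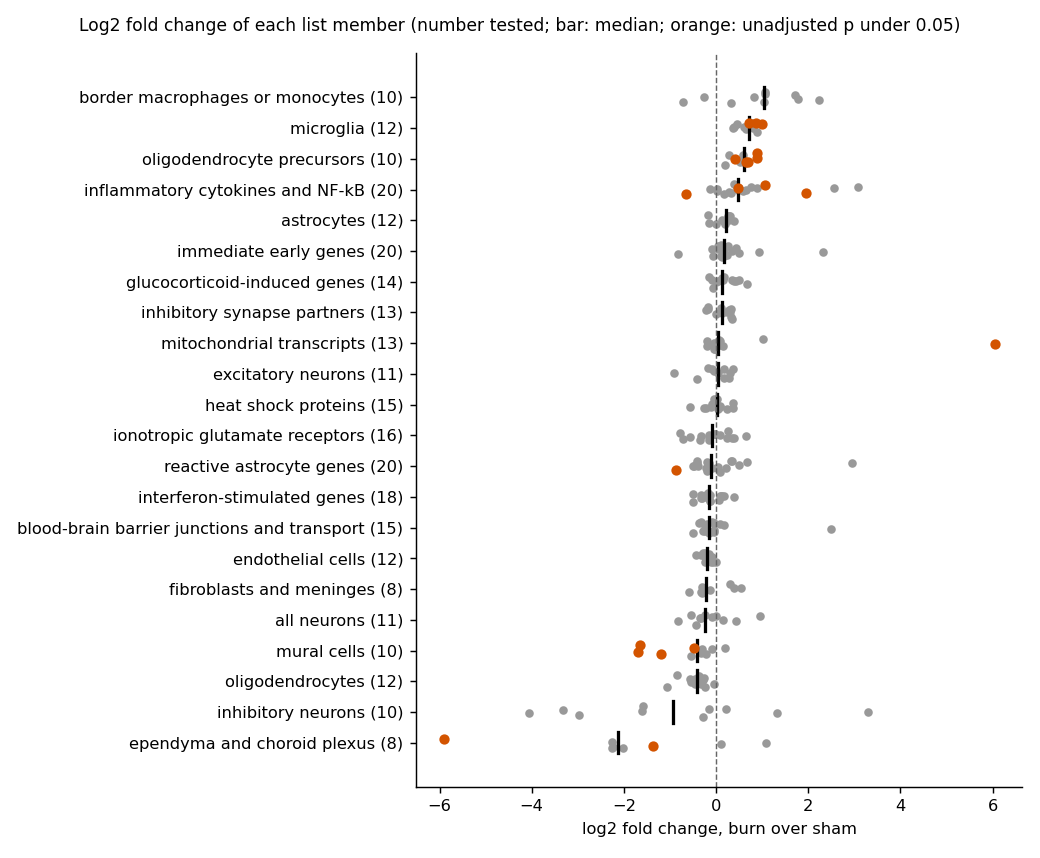
Log2FC of burn over sham (horizontal axis) for each tested member of 22 gene lists, with a bar at the list median, and orange points for members with an unadjusted p under 0.05. Oligodendrocyte precursor and microglia members all lie above 0 and oligodendrocyte members all below it, and no member passed the adjusted threshold.

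No mural marker passed the adjusted threshold, and the summed level of the list did not differ past it either (above). Of 10 mural markers, 4 were lower at an unadjusted p under 0.05 and 0 higher, where 1.23% of genes at 5 CPM or more were lower, and the list median was −0.40. Acta2, smooth muscle actin, had 77.3, 6.13, 24.0 and 16.5 CPM in burn mice 2, 20, 22 and 24 and 286, 36.5, 35.2, 59.1, 21.1 and 87.1 CPM in sham mice 8 and 15 to 19 (log2FC −1.70, SE 0.41). In batch 1 the burn library lay below the sham library, and in batch 3 burn mouse 22 lay above sham mouse 18. Within batch 3 alone the list median was −0.35, with 2 members lower at an unadjusted p under 0.05, and with the microglia level as a covariate, chosen after seeing the data, it was −0.64 with 6. Tagln, an actin-binding protein of smooth muscle, had 29.1, 0.572, 8.32 and 3.80 CPM in burn and 5.52 to 80.3 CPM (median 13.6) in sham libraries (log2FC −1.66, SE 0.56), with 67.9% of its exon bases shared with Pcsk7 and Gm48529 on the opposite strand, and whether counting used the strand of the reads is not given in the sources used here. Myh11, smooth muscle myosin, had 53.4, 2.53, 11.8 and 19.3 CPM in burn and 170.2, 39.0, 22.7, 17.7, 22.7 and 16.2 CPM in sham libraries (log2FC −1.19, SE 0.43). Sham mouse 8 was highest in all 3 genes, and in batch 3 alone, which leaves out mice 2 and 8, the log2FC was −1.63 for Acta2 and −1.69 for Tagln. Of the pericyte genes of the list, Pdgfrb had a log2FC of −0.080 (SE 0.18) and Rgs5 of −0.55 (SE 0.26). Of all 10 mural markers, 9 had a log2FC below 0.

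Among genes of at least 5 CPM, the 10 with the smallest p in the lower direction were Lrrc9, Acta2, Gkn3, Gdf10, Tsku, Ano1, Gper1, Bicc1, Itga3 and Bace2, with log2FC of −1.10, −1.70, −1.62, −1.16, −0.93, −0.80, −0.92, −1.20, −0.94 and −2.08. None passed the adjusted threshold. Gkn3, a secreted protein found in arterial endothelium of the brain, had 4.29, 6.77, 9.97 and 2.21 CPM in burn and 18.7, 10.2, 21.1, 23.2, 12.5 and 20.7 CPM in sham libraries (SE 0.43). Ano1, a calcium-activated chloride channel of smooth muscle and pericytes, had 15.7, 17.2, 18.7 and 15.8 CPM in burn and 37.6, 22.5, 23.9, 21.0, 37.2 and 34.1 CPM in sham libraries (SE 0.24). In both genes all burn libraries lay below all sham libraries, as in 35 of the genes tested (0.125%). Gdf10, a secreted ligand of the TGF-beta family, had 16.8, 12.4, 8.69 and 20.8 CPM in burn and 64.5, 39.4, 33.5, 19.6, 21.0 and 24.4 CPM in sham libraries (SE 0.31), and burn mouse 24 lay above sham mouse 17. Lrrc9, a leucine-rich repeat gene, had 22.6, 8.89, 19.0 and 10.3 CPM in burn and 65.7, 19.6, 21.4, 28.7, 25.7 and 29.2 CPM in sham libraries (SE 0.26), and burn mouse 2 lay above sham mice 15 and 16.

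Oligodendrocyte precursor genes leaned higher in burn libraries and mature oligodendrocyte genes lower, with no member past the adjusted threshold. All 10 precursor markers had a log2FC above 0, 5 of them with an unadjusted p under 0.05, where 1.03% of genes at 5 CPM or more were higher, and their median was 0.61. Within batch 3 alone 8 were above and 2 below 0, 2 had an unadjusted p under 0.05 and the median was 0.42. With the mural level as a covariate, chosen after seeing the data, 0 members had such a p and the median was 0.26. Gpr17, a receptor of precursors about to differentiate, had 79.6, 52.0, 125 and 146 CPM in burn and 28.8, 68.6, 67.2, 55.1, 81.9 and 53.3 CPM in sham libraries (log2FC 0.88, SE 0.26). Tnr, a matrix protein made by the lineage, had 126, 114, 218 and 284 CPM in burn and 107, 122, 162, 67.7, 131 and 109 CPM in sham libraries (log2FC 0.68, SE 0.26). Pdgfra, the receptor that drives precursor division, had 106, 99.0, 154 and 169.8 CPM in burn and 43.7, 77.2, 149, 72.2, 135 and 73.2 CPM in sham libraries (log2FC 0.65, SE 0.26). Burn mice 22 and 24 were highest in these 3 genes, and burn mouse 20 lay within the sham range in each. Ptprz1 and Cspg5, which astrocytes share with precursors and which make up most of the summed level, had log2FC of 0.20 and 0.28 (SE 0.29 and 0.31), and in batch 3 alone −0.0062 and −0.0040. All 12 mature markers had a log2FC below 0, with a median of −0.41 and 0 at an unadjusted p under 0.05. Mbp, a myelin protein, had 126, 137, 227 and 333 CPM in burn and 1799.8, 337, 41.9, 261, 45.6 and 91.7 CPM in sham libraries. Sham mouse 8 held by far the most Mbp, and in batch 3 alone, which leaves out burn mouse 2 and sham mouse 8, the list median was 0.010.

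Microglia genes leaned higher in burn libraries as a list. All 12 markers had a log2FC above 0, also within batch 3 alone, with a median of 0.72, and 3 had an unadjusted p under 0.05 (Fcrls, C1qa and Siglech), where 1.03% of genes at 5 CPM or more were higher. With the mural level as a covariate, chosen after seeing the data, 10 of the 12 had such a p and the median was 1.38. None passed the adjusted threshold. Of the 13016 genes at 5 CPM or more, that fit gave 301 higher and 38 lower at such a p. Without the covariate these were 134 and 160. Fcrls, an Fc receptor-like protein of microglia, had 45.7, 65.9, 65.4 and 50.6 CPM in burn and 29.6, 54.0, 31.3, 20.3, 27.6 and 27.1 CPM in sham libraries (log2FC 0.87, SE 0.23). C1qa, a complement subunit, had 31.1, 273, 111 and 89.4 CPM in burn and 17.3, 120.2, 33.5, 43.9, 72.8 and 123 CPM in sham libraries (log2FC 0.99, SE 0.38). In Fcrls the sole sham library above the lowest burn library was that of mouse 15, while in C1qa the groups overlapped broadly and burn mouse 20 was highest. Nrros, which helps activate TGF-beta on microglia, had 43.2, 61.5, 33.6 and 55.7 CPM in burn and 19.4, 41.2, 31.5, 21.4, 29.3 and 31.1 CPM in sham libraries (log2FC 0.81, SE 0.22). Pik3cg, a leukocyte PI3-kinase, had 20.2, 47.0, 31.5 and 32.8 CPM in burn and 4.39, 33.3, 12.7, 11.5, 17.4 and 23.8 CPM in sham libraries (log2FC 1.19, SE 0.33). Siglec1, a sialic acid receptor of macrophages, had 1.37, 17.7, 26.1 and 19.7 CPM in burn and 0, 12.4, 1.52, 1.52, 1.84 and 6.70 CPM in sham libraries (log2FC 2.62, SE 0.74). These 3 genes were among the 10 of smallest p in the higher direction, together with Fcrls, Gpd1 and 5 immunoglobulin genes. In the CD11b-positive microglia sort of the same study the burn log2FC were −0.049 for Fcrls, 0.10 for C1qa, 0.11 for Nrros and 0.0030 for Pik3cg (8 burn and 7 sham libraries), and the difference between the sorts was not tested.

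Cytokine and NF-kB genes leaned higher in burn libraries, as did the microglia markers above. Of 20 genes, 3 were higher (Il1b, Tnf and Nfkbiz) and 1 lower (Il1r1) at an unadjusted p under 0.05, where 1.03% and 1.23% of genes at 5 CPM or more were. Of the 20, 18 had a log2FC above 0 and the median was 0.48. Il1b, the cytokine interleukin-1 beta, had 20.7, 217, 42.6 and 54.2 CPM in burn and 4.28, 67.8, 7.35, 1.85, 30.1 and 41.2 CPM in sham libraries (log2FC 1.94, SE 0.71). Tnf, tumour necrosis factor, had 6.56, 18.3, 25.9 and 21.6 CPM in burn and 3.52, 7.47, 4.07, 7.67, 14.7 and 17.2 CPM in sham libraries (log2FC 1.05, SE 0.39). Burn mouse 20, the library with the most microglia RNA, held the most Il1b, and both genes overlapped between groups. With the microglia level as a covariate the log2FC of Il1b was 0.55, that of Tnf 0.87 and the list median 0.17. With the mural level the list median was 0.88, with 7 members higher at an unadjusted p under 0.05. Of the 13016 genes at 5 CPM or more, the mural fit gave 301 higher and 38 lower at that threshold. Both alternatives were chosen after seeing the data. Il1r1, the interleukin-1 receptor, had 17.0, 28.9, 28.1 and 28.2 CPM in burn and 25.1 to 56.8 CPM (median 41.3) in sham libraries (log2FC −0.66, SE 0.25).

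**Figure D5:**
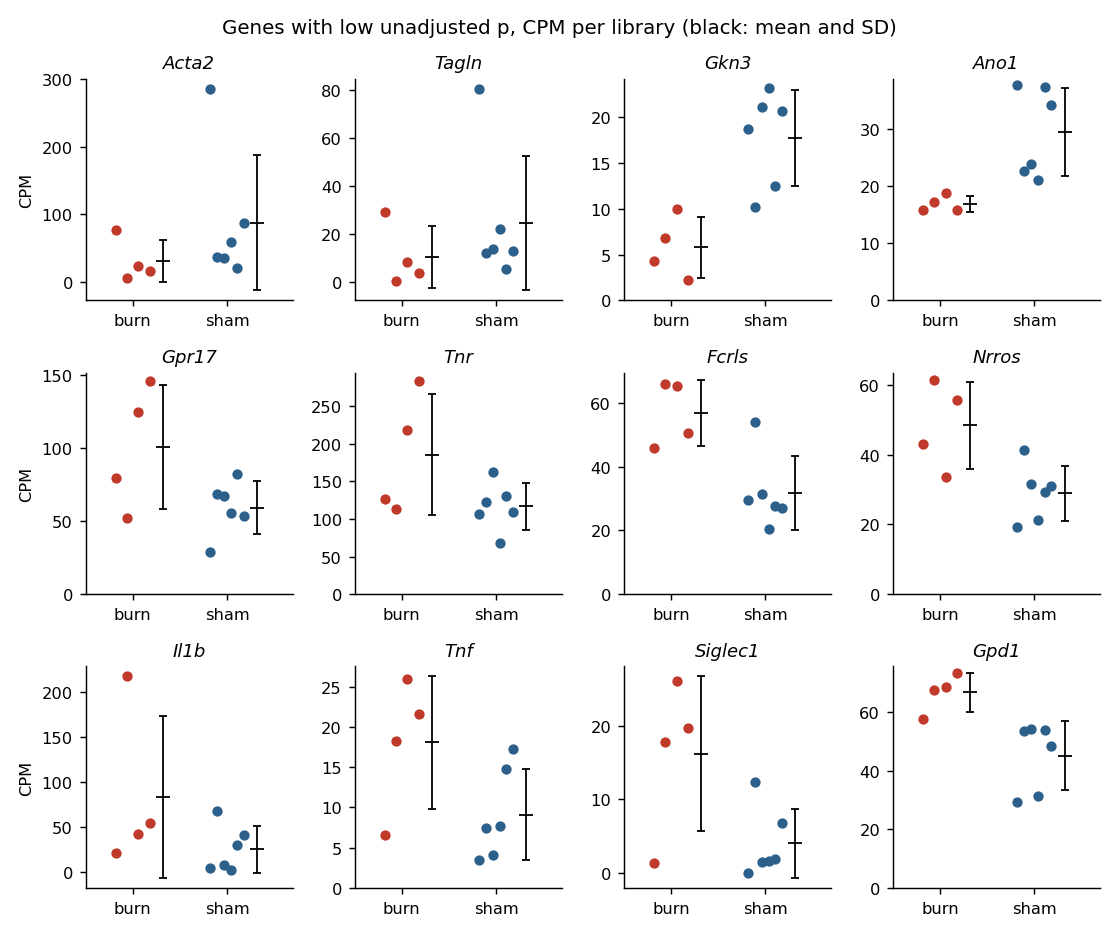
CPM (vertical axis, linear) of 12 genes with an unadjusted p under 0.05 in each CaMKII-positive library, burn (red, n = 4) and sham (blue, n = 6), with the mean and SD in black. Burn and sham points are separate in Gkn3, Ano1 and Gpd1 and overlap in the others.

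Gpd1, a cytosolic glycerol-3-phosphate dehydrogenase, separated the groups in the higher direction. It had 57.6, 67.5, 68.8 and 73.5 CPM in burn and 29.5, 53.6, 54.3, 31.3, 53.9 and 48.6 CPM in sham libraries (log2FC 0.63, SE 0.18), and all burn libraries lay above all sham libraries, as in 69 of the genes tested (0.245%). Exons of Gpd1 share 13.0% of their bases with Gm16537 on the opposite strand. In the astrocyte sort its burn log2FC was 0.14 (SE 0.14).

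Lists for stress and activity responses had no member past either threshold. None of 20 immediate early genes, 15 heat shock genes, 14 glucocorticoid-induced genes or 18 interferon-stimulated genes had an unadjusted p under 0.05, and their medians were 0.17, 0.013, 0.14 and −0.15. Fos, an activity-induced transcription factor, had 816, 970.4, 935 and 729.9 CPM in burn and 560.4 to 1164 CPM (median 716) in sham libraries (log2FC 0.16, SE 0.24). Jun, its partner, had 621, 921, 879 and 845 CPM in burn and 587 to 1195 CPM (median 702) in sham libraries (log2FC 0.036, SE 0.23). Burn values of both lay within the sham range. The heat shock gene Hspa1b ran from 432 to 799 CPM in burn and from 124 to 1113 CPM in sham libraries (log2FC 0.37, SE 0.52). Sgk1, a kinase induced by glucocorticoids, had a log2FC of 0.39 (SE 0.21) and Ifit3, induced by interferon, of −0.50 (SE 0.25). Of 20 reactive astrocyte genes, 1 was lower at an unadjusted p under 0.05 (S1pr3, a sphingosine-1-phosphate receptor, log2FC −0.87, SE 0.32), and Vim, an intermediate filament, had a log2FC of −0.50 (SE 0.37). Of 15 blood-brain barrier genes, 11 had an interval within −1 to 1, among them the glucose transporter Slc2a1 (log2FC −0.20, SE 0.33).

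Accounting for RNA of other cell types left the count of called genes near 0. With the astrocyte level as a covariate edgeR called 0 genes, with the oligodendrocyte lineage level 0, with the endothelial level 1 and with all 3 together 0. The gene called with the endothelial level was Igkv8-30, an antibody kappa segment with counts in burn mouse 20 alone and thus higher in burn. At an unadjusted p under 0.05 these fits gave 992 higher and 275 lower genes (astrocyte), 1036 and 211 (oligodendrocyte lineage), 1497 and 245 (endothelial), and 449 and 206 (all 3). Of the 294 genes of at least 5 CPM with an unadjusted p under 0.05 without a covariate, 251 kept that and their direction with the endothelial level, 223 with the oligodendrocyte lineage level, 122 with the astrocyte level and 53 with all 3. Acta2 had a log2FC of −1.27, −1.46 and −1.64 with the astrocyte, endothelial and oligodendrocyte lineage levels, Gpr17 0.70, 0.80 and 0.88, and Fcrls 0.77, 0.84 and 0.94, each in the same direction as without a covariate. The mural list median was −0.39 and the precursor list median 0.54 with all 3 levels, while the microglia list median was 0.33. With the astrocyte level alone the precursor list median was 0.31, and 2 of its 10 members had an unadjusted p under 0.05. A fit with covariates on 10 libraries has few degrees of freedom left, and the levels are themselves measured in these libraries.

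Genes of ependymal cells, which line the ventricles, varied widely among libraries. The 8 ependymal and choroid plexus markers summed to 57.7, 26.2, 97.5 and 10.8 CPM in burn and 8.08 to 566 CPM in sham libraries, with sham mice 8, 19 and 17 highest. Foxj1, the transcription factor of motile cilia, had 13.1, 6.97, 40.8 and 2.89 CPM in burn and 277, 15.3, 1.52, 85.1, 4.64 and 172 CPM in sham libraries (log2FC −2.27, SE 1.15). Of the 8 members, 2 were lower at an unadjusted p under 0.05 (Rarres2 and Prlr), where 0.911% of all genes tested were, and exons of Rarres2 share 33.6% of their bases with Lrrc61 on the opposite strand. The list median was −2.13 without a covariate, 0.23 with the astrocyte level and 0.20 with all 3 levels. Sham mice 8, 17 and 19 also held the least astrocyte RNA, at 18453, 15189 and 19963 CPM of the 12 markers.

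The remaining lists had 4 members in all with an unadjusted p under 0.05, and none past the adjusted threshold. The 11 pan-neuronal markers had a median log2FC of −0.25 and the 10 tested inhibitory neuron markers of −0.93, the latter at summed levels of 7.61 to 18.0 CPM in burn and 2.98 to 28.3 CPM in sham libraries. The 10 markers of border macrophages or monocytes had a median of 1.05 with none at an unadjusted p under 0.05, and the 8 fibroblast and meningeal markers of −0.22. Of 4 tested red blood cell genes, 3 (Hba-a1, Hba-a2 and Hbb-bs) were higher at an unadjusted p under 0.05, where 2.99% of all genes tested were. These 3 genes had 0 counts in all sham libraries and means under 1 CPM in burn libraries, and with all 3 levels as covariates 0 of the 4 had such a p. The list had summed levels of 1.83, 7.51, 1.35 and 21.6 CPM in burn and 0 to 7.23 CPM in sham libraries (exact permutation p = 0.357). Of 13 mitochondrial transcripts, 1 was higher at that threshold (mt-Atp8) and the median was 0.049.

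The burn difference was then compared with that in ACSA2-positive astrocytes (9 burn and 8 sham libraries), whose marker genes the CaMKII-positive libraries share. The interaction of treatment with population called 0 of 30729 genes (0%) in edgeR, with 1614 genes at an unadjusted p under 0.05. Acta2 had a burn log2FC of −1.70 in CaMKII-positive cells and 0.60 in the astrocyte sort (SE 0.67), Lrrc9 −1.10 and 0.21 (SE 0.15) and Gpr17 0.88 and −0.41 (SE 0.49). None of these differences between the sorts passed the adjusted threshold (lowest adjusted p over all genes = 0.938).

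Burn libraries lay within the sham range on the first principal component (PC1) of the 10 libraries. The first 2 principal components of the 500 most variable genes, with the marker genes left out, held 51.4 and 18.7% of their variance. PC1 was lowest in sham mice 8, 17 and 19 and correlated across the 10 libraries with the astrocyte level (Pearson's r = 0.79, permutation p = 0.00834, adjusted over 12 relations 0.1; Spearman's rho = 0.76, permutation p = 0.015, adjusted 0.18). Without the 2 libraries farthest from the median astrocyte level (mice 8 and 17) r was 0.83, and in the 8 libraries of batch 3 it was 0.89. PC2 correlated with the microglia level (r = 0.64, permutation p = 0.0478, adjusted 0.287; rho = 0.56, permutation p = 0.0968, adjusted 0.367), with r = 0.63 without mice 17 and 20 and 0.58 in batch 3. Neither passed the adjusted threshold, and the levels and the components come from the same libraries.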

How the data were processed

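The authors trimmed reads with fastp, aligned them with STAR, summarised the alignments per Ensembl gene (GenomicAlignments), and deposited raw counts in 1 table per sorted population, with batch and exclusion notes in a supplementary table. The genome build is named as both mm10 and GRCm39, so no positions are given. Libraries were made with a stranded total RNA kit after ribosomal depletion. The deposited normalised tables were not used, and 0 columns of the count tables were left unassigned. Files hold Ensembl IDs, of which 52073 of 56980 were given symbols. Chromosomes, exon lengths and overlaps come from GENCODE M21 (GRCm38).

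Counts were tested with edgeR 4.0.16 (quasi-likelihood, TMM) in R 4.3.3 with batch and treatment and Benjamini-Hochberg adjustment, leaving out genes under 10 counts over the fitted libraries. SE is the absolute log2FC over the square root of F. CPM were taken over the total counts of each library, without TMM factors. Marker levels are summed CPM, tested by exact permutation within batches on log2(sum + 0.5). Principal components were taken from variance-stabilised values (DESeq2 1.42.0, blind to treatment), and their relations were tested with 100000 permutations. The replicate is 1 mouse. Libraries of the same mouse in the other sorts carry the same number and are paired: deviations of 8 mice correlated at −0.028 to 0.11 with those in the astrocyte sort. Alternatives were DESeq2, limma 3.58.1 (voom), other scalings and filters, batch handling, marker covariates and each mouse left out; the mural and microglia covariates and the mean of log2 values were added after seeing the data. The fit was tested on simulated data.

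Members and lists were chosen with earlier results of these data known. Genes named are the 4 cell type markers, GABA-A subunits, every gene called by edgeR or DESeq2, the 10 higher and 10 lower genes with the smallest p at 5 CPM or more, the 3 with the smallest p in each direction, and in each list the 2 of highest level and the 2 of smallest p. Other list members named in the text were chosen after their values were seen. Some genes under this rule are not reported here. Antibody segments are near-identical copies whose counts can be split.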

Additional observations from a re-analysis of the deposited data

Results flagged for a closer look

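The library of sham mouse 8 stood apart in 2 of 26 tests, where chance alone gives about 1 in 20. Its oligodendrocyte markers summed to 4329 CPM, where the other 5 sham libraries ran from 385 to 1660.4 CPM, and the gap to its nearest neighbour was larger than Dixon's test allows in a group of 6. Its fibroblast and meningeal markers, led by the collagens Col1a1 and Col1a2, summed to 788 CPM against 71.0 to 242 CPM. Mouse 8 is the sole sham library of batch 1, so batch and animal cannot be told apart among the sham libraries. The batch 1 libraries of burn mice 2 and 3 held 472 and 528 CPM of the oligodendrocyte markers. Their fibroblast and meningeal markers summed to 201 and 251 CPM. The part of batch was not tested. In batch 3 alone the fitted log2FC of Col1a2 was 0.067 and that of Mbp 0.60, against −0.31 and −0.049 in all 10 libraries. With the batch term, leaving out mouse 8 also removes the part of burn mouse 2 in the treatment difference, so their parts cannot be told apart.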

How the results depend on the processing

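The count of 0 called genes held with other size factors, library size only, other filters, no batch term, batch 3 alone, all deposited libraries, mouse 2 thinned, no minimum fold change, limma-voom, the astrocyte, oligodendrocyte lineage and mural levels, all 3 planned levels together, and without each mouse in turn (0 to 0 genes). DESeq2, with and without independent filtering, called 3 genes, among them Ighv2-3 and Igkv5-43 with log2FC of −24.54 and −23.14. The endothelial level as a covariate gave 1 call (Igkv8-30) and the microglia level, added after seeing the data, 1 call (Ighv1-64), each a segment with counts in 1 library. Of 123 named genes tested, 54 changed sign of the log2FC in at least 1 of 27 alternatives, none while called. Of 13 marker lists, 6 changed sign in at least 1 setting and none passed the threshold in any (lowest adjusted p = 0.232): the median CPM of the excitatory list gave −0.29, and without each mouse the excitatory list ran from −0.20 to 0.22 and the all-neuron list from −0.22 to 0.069. The relation of PC1 with the astrocyte level passed the threshold with log2 CPM (r = 0.85) and with all genes tested (r = 0.85). The interaction called 0 genes in the same mice with the mouse as a replicate block (495 at an unadjusted p under 0.05) and without it (1050); the block changed no call. The number of genes with an interval within −1 to 1 was 9146 with filterByExpr and 8880 without mouse 2. The causes of these shifts were not tested. Of the genes from 1 to 5 CPM none had an interval within −1 to 1.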

Other observations

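Antibody genes, which plasma cells and B cells express, were at very different levels among the libraries. Summed over 93 immunoglobulin genes with a count, a list made after their values were seen, burn mice 2, 20, 22 and 24 held 13.9, 2322, 24.7 and 2989.7 CPM and sham mice 8 and 15 to 19 held 4.01, 23.3, 7.23, 85.1, 2189.9 and 6148 CPM. Burn mice 20 and 24 and sham mice 18 and 19 were thus far above the other 6 libraries, 2 of each group. Igkc, the constant region of the kappa light chain, had the most counts in each of these 4 libraries (20180, 19831, 8185 and 36498). The variable segments differed from library to library, and 54 of the 85 tested genes had over 90% of their summed CPM in 1 library, against 7.61% of all genes tested. Ighg1, an IgG1 constant region, had 299 CPM in burn mouse 24, 1.91 CPM in sham mouse 18 and 0 in the other 8 libraries. Ighv1-64 and Igkv12-46 had counts in burn mouse 24 alone (106 and 62.7 CPM), Igkv8-30 and Ighv1-80 in burn mouse 20 alone (139 and 67.2 CPM), and Ighv1-75 in burn mice 22 and 24 (0.674 and 39.3 CPM). Ighv2-3 and Igkv5-43, which DESeq2 called lower in burn, had counts in sham mice 18 and 19 alone (46.2 and 15.2 CPM for Ighv2-3).

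The library of burn mouse 3, left out of the comparisons for skin ulceration, held 35062 CPM of the astrocyte and 10095 CPM of the endothelial markers, with 10.6 CPM of Camk2a and 2.24 CPM of Slc17a7. Its Acta2 was at 73.7 CPM.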
